A study of Mus musculus with 9 samples.

Results

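The nuclear receptors described here are a list of 34 mouse genes that encode ligand-gated and orphan transcription factors, followed in heart from birth to adulthood. A listed gene was included where a probe set of the array, the group of probes that reads a transcript, carried its symbol and no other symbol. By this rule 33 of the 34 genes were measured, each by 1 probe set, among 19938 genes measured in all. Nr1h2, which encodes the beta form of the liver X receptor, was not analysed here. Hearts came from mice of the inbred strain C57BL/6 aged 24 hours, 7 days or 10 weeks, with 3 arrays per age and 9 in all, and the labels name no treatment and no altered gene. The labels give the tissue as cardiac muscle of the heart and do not give sex. Total RNA was read on the Affymetrix Mouse Gene 1.0 ST array, and each deposited value is a log2 signal, on which a difference of 1 is a 2-fold change. Nothing in the labels says whether arrays of the same age come from different mice. P-values therefore measure only the spread between these samples, which may be technical.

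Nuclear receptors bind DNA at short recognition sites and switch target genes on or off when a small lipophilic ligand (a retinoid, thyroid hormone, a steroid, a fatty acid or an oxysterol) enters their ligand-binding domain. Many of them, including the retinoic acid, thyroid hormone, vitamin D, peroxisome proliferator-activated and liver X receptors, work as a dimer with a retinoid X receptor, whereas steroid receptors pair with themselves and most orphan receptors have no known physiological ligand. In heart the peroxisome proliferator-activated and oestrogen-related receptors control genes of fatty acid oxidation and oxidative phosphorylation. Thyroid hormone sets the balance of myosin isoforms and ion channels after birth.

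All 10 cardiomyocyte markers checked (Tnnt2, Ryr2, Myl2 and others) had signals between 10.58 and 13.34 on every array. The 7-day group was not uniform. Ucp1, which defines brown fat, was at 4.30, 11.22 and 9.27 on 7-day replicates 1, 2 and 3 and between 3.92 and 4.27 on the other arrays. Adipoq, made by fat cells, followed with 3.91, 7.71 and 5.33 at 7 days, and the liver gene Alb was at 7.81 on 7-day replicate 2. Lung markers, 7 genes, averaged 4.77 on 7-day replicate 2 and 4.72 on 24-hour replicate 1, against 4.10 to 4.30 on the other arrays. The part of lung transcripts in receptor calls that turn on these arrays was not tested. The mean signal of 6 atrial markers lay between 9.22 and 10.19 up to 7 days, and at 10 weeks it lay between 6.75 and 8.02. The Y-linked gene Eif2s3y had signals from 6.06 to 7.71 up to 7 days and from 2.87 to 3.30 at 10 weeks, while Xist, which silences an X chromosome in female cells, had signals of 8.26 to 9.56 over the 9 arrays. Age and the sex of the mice sampled therefore cannot be told apart in the comparisons with 10 weeks. All 8 proliferation markers fell after 7 days, with a median difference of -3.26. Receptor counts are also given without 7-day replicates 2 and 3, and counts of the gene lists in either interval where that moves them by more than 1.5 times; the single 7-day array left is assumed to vary like the other ages. In whole-heart RNA, fewer cells of a type and less RNA per cell cannot be told apart.

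The retinoid X receptor gene Rxrg rose most of the receptors, 13.7-fold from 24 hours to 10 weeks, and Thrb, Nr1h3 and Esrrb were the other receptors that rose at least 2-fold. No receptor fell 2-fold in any comparison, where 0.201%, 2.98% and 3.39% of all genes did in the first week, after it and over the whole interval. The lowest estimate was that of the vitamin D receptor Vdr, 1.78-fold lower at 10 weeks than at 24 hours. From 24 hours to 7 days, 6 of the 33 receptors rose and 1 fell (limma, Benjamini-Hochberg adjusted p under 0.05 over all genes), where 5.27% of all genes rose and 4.81% fell. From 7 days to 10 weeks, 12 rose and 8 fell, beside 17.0% of all genes that rose and 18.9% that fell. Over the whole interval, 13 were higher and 7 lower at 10 weeks, beside 19.5% and 20.6% of all genes. The 3 comparisons share arrays, so their counts are not independent.

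The median log2 difference of the receptors was 0.10 for the first week and 0.07 from 7 days to 10 weeks, against 0.00 and 0.04 over all genes. The median size of a difference, whatever its sign, was 0.18 and 0.32 for receptors, against 0.08 and 0.15 over all genes. The groups of arrays did not overlap for 18 receptors in the first week, 20 in the second interval and 22 between the youngest and oldest hearts; over all genes these shares were 27.1%, 44.3% and 48.2%. Called in either direction were 21.2%, 60.6% and 60.6% of the receptors, against 10.1%, 35.9% and 40.1% of all genes. These all-gene values, and the medians above, include dim genes. Among the 14953 genes above the lower quartile of mean signal, fitted alone, the called shares were 15.0%, 47.1% and 51.4%. Of the 33 receptors, 1 had a mean signal below that quartile. Within an age the replicates lay close together, and the widest spread of a receptor was 0.735, for Pparg at 7 days. Of the 33 receptors, 25 passed the test in at least 1 comparison, 5 passed in all 3, and 8 passed in none. The count of first-week rises depended on single arrays. It was 3 with 24-hour replicate 1 dropped, and also with 24-hour replicate 2 or 7-day replicate 2 dropped, and it was 2 with 24-hour replicate 3 dropped. Dropping 7-day replicates 2 and 3 together left 2 first-week rises (Rxrg and Nr3c1) and 0 first-week falls. In that setting 10 receptors rose after 7 days, with Esrra, Rxra and Rorb no longer called and Pparg called, and 4 fell (Rara, Thra, Vdr and Nr2c2). Between 24 hours and 10 weeks 13 were then higher and 6 lower, with Nr1h4 no longer called.

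**Figure D1:**
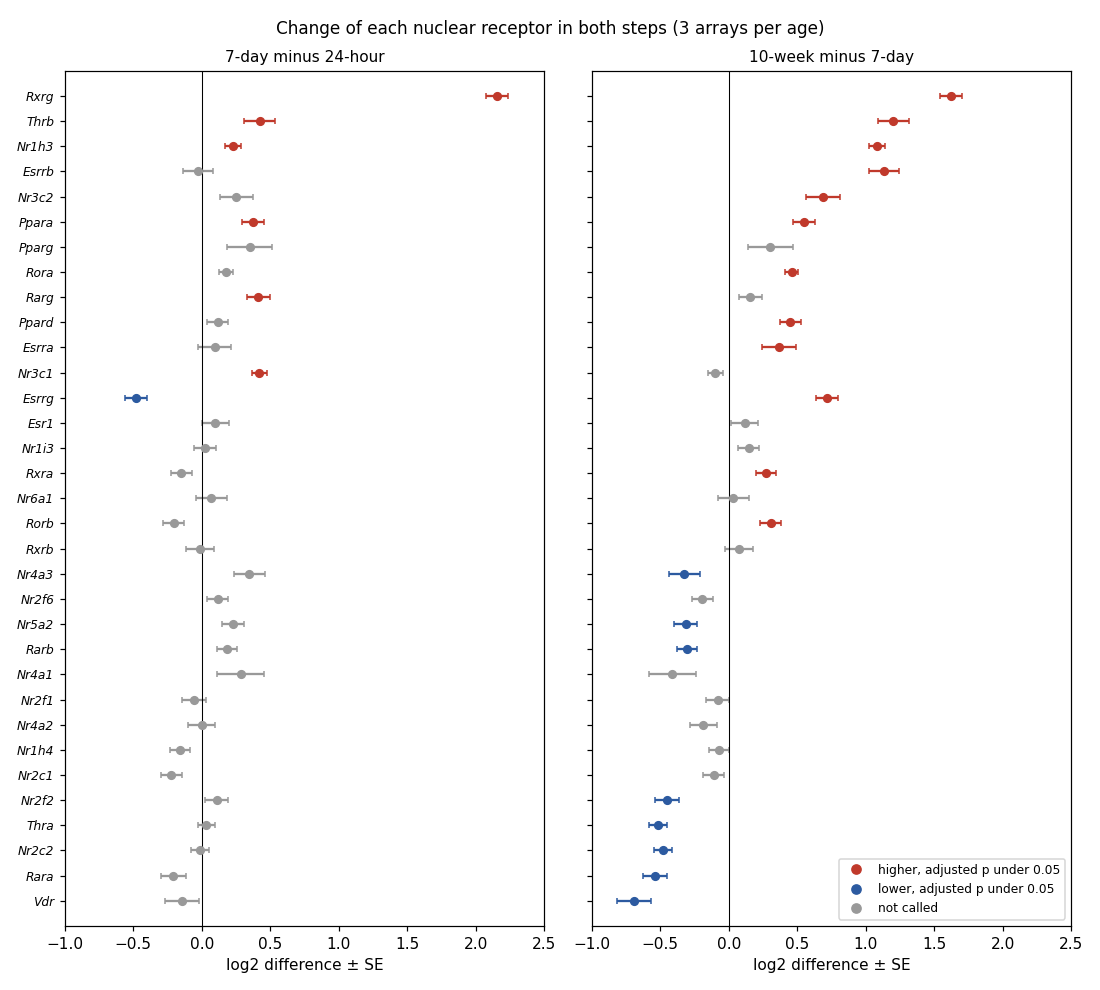
Log2 difference ± SE of each of the 33 receptors (rows) from 24 hours to 7 days (left) and from 7 days to 10 weeks (right), from the limma fit on 3 arrays per age; red and blue mark receptors that were higher or lower at adjusted p under 0.05. Rxrg stands at 2.15 in the left panel and 1.62 in the right, while Esrrg is the receptor that is blue on the left and red on the right.

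By course over the 3 ages, 4 receptors rose in both intervals (Ppara, Rxrg, Thrb and Nr1h3), a course taken by 2.03% of all genes. Rarg and Nr3c1 rose in the first week and did not pass the test afterwards (1.44% of all genes). Esrrg fell and then rose, a course taken by 1.23% of all genes. Late rises without a first-week call were seen in 7 receptors (Ppard, Esrra, Esrrb, Rxra, Nr3c2, Rora and Rorb), the course of 13.7% of all genes. Late falls without a first-week call were seen in 8 (Rara, Rarb, Thra, Vdr, Nr2c2, Nr2f2, Nr4a3 and Nr5a2), the course of 15.1% of all genes. Neither interval gave a call for the other 11 receptors or for 61.1% of all genes. No receptor fell in both intervals (2.09% of all genes), fell in the first week alone (1.48%) or rose and then fell (359 of 19938 genes).

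**Figure D2:**
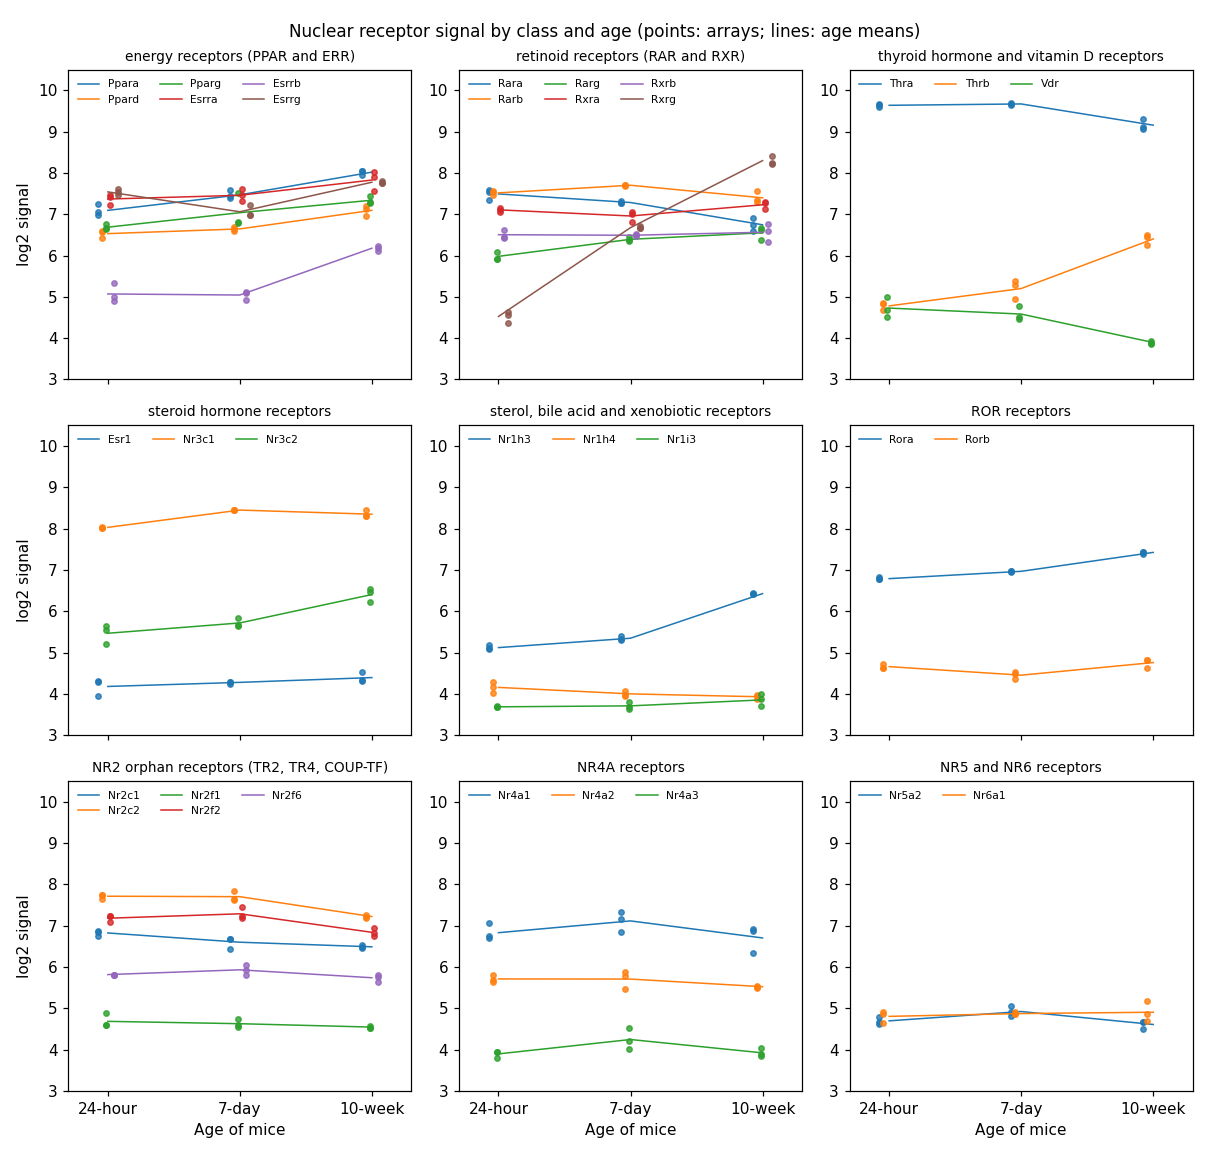
Log2 signal (vertical axis) of the 33 receptors at 24 hours, 7 days and 10 weeks (horizontal axis), in 9 panels by receptor class; points are single arrays and lines join the means of 3 arrays. Rxrg climbs from between 4.37 and 4.63 to between 8.22 and 8.42, and the Thra and Thrb lines move in opposite directions after 7 days.

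The retinoid X receptors are the shared dimer partners of the class, and the 3 genes took different courses. The gamma gene rose in both intervals, the alpha gene rose slightly after the first week, and the beta gene did not pass the test at any step. Rxrg signal was 4.57, 4.37 and 4.63 at 24 hours, 6.66, 6.66 and 6.70 at 7 days, and 8.22, 8.42 and 8.25 at 10 weeks. No array of an age overlapped with an array of another age. The log2 difference was 2.15 ± 0.08 (SE, 3 arrays per age; limma adjusted p = 2e-06) for the first week and 1.62 ± 0.08 (adjusted p = 1.87e-07) from 7 days to 10 weeks, or 4.44-fold and then 3.08-fold. Among all genes, 0.426% rose at least 2-fold in the first week and 2.07% in the later interval.

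Rxra was at 7.07, 7.14 and 7.11 at 24 hours, 7.00, 6.82 and 7.05 at 7 days, and 7.27, 7.29 and 7.13 at 10 weeks. Its rise after 7 days was 0.27 ± 0.07 (limma adjusted p = 0.0147) and depended on 7-day replicate 2, the lowest array, without which it was 0.20 (adjusted p = 0.0554). Rxrb stayed between 6.33 and 6.77 on all 9 arrays, and its estimates for the 3 comparisons lay between -0.01 and 0.07.

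Promoter sequences are shown for Rxrg and Thrb, the receptors with the largest rises, and for Rxra, the partner gene that shares a longer motif with Rxrg. Each is the 250 bases before a RefSeq transcript start on build GRCm38.p6, in the direction of the gene. Capitals mark the core nuclear receptor recognition site AGGTCA or its reverse complement.
Rxrg, chr1:167618015-167618264, plus strand: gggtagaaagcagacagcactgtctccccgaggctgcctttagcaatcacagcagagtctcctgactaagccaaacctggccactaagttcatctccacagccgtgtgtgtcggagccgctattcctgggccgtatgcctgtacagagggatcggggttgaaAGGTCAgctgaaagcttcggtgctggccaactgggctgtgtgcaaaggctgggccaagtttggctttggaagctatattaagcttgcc
Rxrg, chr1:167598112-167598361, plus strand: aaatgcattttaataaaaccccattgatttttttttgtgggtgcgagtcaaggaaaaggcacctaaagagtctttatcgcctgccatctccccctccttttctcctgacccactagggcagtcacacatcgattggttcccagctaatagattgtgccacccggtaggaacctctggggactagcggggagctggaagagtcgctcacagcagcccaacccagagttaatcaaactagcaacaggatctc
Thrb, chr14:17660710-17660959, plus strand: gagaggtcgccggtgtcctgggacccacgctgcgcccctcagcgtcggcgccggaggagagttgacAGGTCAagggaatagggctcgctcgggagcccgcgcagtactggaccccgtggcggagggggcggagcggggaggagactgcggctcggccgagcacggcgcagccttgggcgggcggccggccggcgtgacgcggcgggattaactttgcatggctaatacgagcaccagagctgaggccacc
Rxra, chr2:27709042-27709291, plus strand: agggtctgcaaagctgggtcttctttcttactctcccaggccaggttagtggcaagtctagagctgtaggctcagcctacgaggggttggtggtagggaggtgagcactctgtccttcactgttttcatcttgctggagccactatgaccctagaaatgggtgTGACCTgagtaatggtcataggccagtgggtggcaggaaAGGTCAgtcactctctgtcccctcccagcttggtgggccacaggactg
Of the 2 Rxrg starts, the downstream start has a site whose first base lies 88 bases before it, and the other start has none. In Thrb the site begins 184 bases before the start shown. In Rxra the 2 sites begin 87 and 48 bases before the start shown, the first on the opposite strand. Thrb and Rxra each have another RefSeq start, not shown, with no site in its 250 bases. These are matches of letters only; no binding was measured, and the array does not tell which start was used.

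RefSeq promoters were matched for 32 of the 34 listed genes, with 52 starts, and Thra and Nr3c1 had no entry. AGGTCA was found on either strand in at least 1 promoter of 8 of these 32 genes (Nr1h4, Nr5a2, Nr6a1, Pparg, Rarg, Rxra, Rxrg and Thrb), and in 15.8% of 27025 genes. The longer form AAAGGTCA, which contains AGGTCA, was in Rxra and Rxrg and in 1.55% of genes. The extended form TNAAGGTCA, which the oestrogen-related receptors prefer, was in none of the 32 and in 1.30% of genes. Direct repeats of AGGTCA spaced by 1, 4 or 5 bases, the arrangements bound by dimers with retinoid X receptors, were in none of the 32, and in 0.0407%, 0.0148% and 0.0111% of genes.

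The retinoic acid receptors, which bind all-trans retinoic acid, did not move together. Rara fell, Rarg rose, and Rarb was highest at 7 days. Rara was at 7.35, 7.59 and 7.53 at 24 hours, 7.28, 7.31 and 7.26 at 7 days, and 6.59, 6.73 and 6.91 at 10 weeks, with every 10-week array below all younger arrays. The fall after 7 days was -0.54 ± 0.09 (limma adjusted p = 7.41e-04). Rarg went from 6.10, 5.92 and 5.92 at 24 hours to 6.45, 6.36 and 6.37 at 7 days and 6.61, 6.37 and 6.67 at 10 weeks. Its first-week rise of 0.41 ± 0.09 (adjusted p = 0.0134) lost its call without 24-hour replicate 2 or 3 or 7-day replicate 1 (adjusted p from 0.0532 to 0.0624), whereas the difference between 24 hours and 10 weeks was 0.57 ± 0.09 (adjusted p = 3.49e-04). Without 10-week replicate 2, Rarg also passed between 7 days and 10 weeks (0.25, adjusted p = 0.0304).

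Rarb, itself a retinoic acid target gene, was at 7.46, 7.54 and 7.56 at 24 hours, 7.68, 7.71 and 7.71 at 7 days, and 7.34, 7.56 and 7.29 at 10 weeks. It fell after 7 days by 0.30 on the log2 scale (SE 0.07, limma adjusted p = 0.007). Left with 7-day replicate 1 as the single 7-day array, the fall was -0.29 (adjusted p = 0.129). Its difference between 24 hours and 10 weeks was -0.12 ± 0.07 (adjusted p = 0.217) and became -0.20 (adjusted p = 0.0199) without 10-week replicate 2.

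Some genes that make and clear retinoic acid changed by more than the retinoic acid receptors did, in both directions. Of 14 tested, 2 rose in the first week, and 3 rose and 1 fell after it. These counts were 14.3% and 28.6% of the list, where 10.1% and 35.9% of all genes were called. Aldh1a2, which makes retinoic acid, was at 7.59, 7.49 and 7.70, then 8.73, 8.50 and 8.74, then 6.47, 6.43 and 6.69, a rise of 1.06 ± 0.09 (limma adjusted p = 8.26e-05) followed by a fall of -2.13 ± 0.09 (adjusted p = 8.49e-08). Aldh1a1, of the same enzyme family, rose by 1.02 ± 0.22 after 7 days. Dhrs3, which turns retinaldehyde back to retinol and is induced by retinoic acid, rose by 0.56 ± 0.09 and then by 1.01 ± 0.09. The late lower count was 2 without 10-week replicate 3, and the first-week higher count was 1 without 7-day replicates 2 and 3. The median difference of the list was 0.10 in the first week and 0.05 after it. Fibroblast markers, 12 genes, also had their highest mean signal at 7 days. Of these, 6 rose and 1 fell in the first week, and 2 rose and 7 fell after it. Their mean signal was 8.71 to 8.91 at 24 hours, 9.25 to 9.61 at 7 days and 8.53 to 8.73 at 10 weeks. Their part in the courses of Aldh1a2, Rarb and Hic1, which were also highest at 7 days, was not tested.

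Retinoic acid target genes, 10 tested, included 3 that rose and 1 that fell in the first week, and 2 that rose and 2 that fell after it. In each interval 40.0% of the list was called, where 10.1% and then 35.9% of all genes were. Rarres2, a chemoattractant gene, rose by 0.70 ± 0.16 and Hic1, a transcriptional repressor gene, by 0.64 ± 0.06 in the first week, while the transglutaminase gene Tgm2 fell by 0.69 (SE 0.09). After 7 days Tgm2 rose by 0.52 ± 0.09 and Hic1 fell by 0.49 (SE 0.06). With 7-day replicates 2 and 3 left out, 1 rose in the first week and 1 fell after it. The list's median difference was 0.04 and then 0.06. The list is not separate from those above: Rarb is a receptor counted there, and Dhrs3, Cyp26a1, Cyp26b1, Stra6 and Crabp2 are also on the supply list.

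The thyroid hormone receptor genes moved in opposite directions after the first week. Thrb rose 3.07-fold from 24 hours to 10 weeks, while Thra, which encodes the predominant receptor of heart, fell 1.40-fold. Thrb was at 4.85, 4.82 and 4.68 at 24 hours, 4.94, 5.37 and 5.29 at 7 days, and 6.44, 6.26 and 6.50 at 10 weeks, with no overlap between ages. Its late rise was 1.20 ± 0.11 (limma adjusted p = 1.47e-05). The first-week rise of 0.42 ± 0.11 (adjusted p = 0.0416) was close to the threshold. It lost its call when any 24-hour array, 7-day replicate 2 or 3, or 10-week replicate 1 was left out, at estimates from 0.33 to 0.45 and adjusted p up to 0.154.

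Thra stood at 9.66, 9.65 and 9.60 at 24 hours, 9.70, 9.67 and 9.64 at 7 days, and 9.30, 9.06 and 9.10 at 10 weeks. The 24-hour and 7-day arrays overlapped and the 10-week arrays lay below them. The late difference was -0.52 ± 0.06 (limma adjusted p = 1.06e-04). This symbol covers the active receptor and a splice form that does not bind hormone, and 1 probe set per gene does not separate them.

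Vdr, the vitamin D receptor gene, was at 5.01, 4.67 and 4.50 at 24 hours, 4.50, 4.46 and 4.78 at 7 days, and 3.94, 3.87 and 3.87 at 10 weeks. The first 2 ages overlapped, and all 10-week arrays were lower. It fell by 0.69 on the log2 scale (SE 0.12, limma adjusted p = 0.00127) after 7 days. These 10-week values lie near the lower quartile of mean signal over all genes, 3.92, and the table has no detection calls.

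Few genes of thyroid hormone supply passed the test. Of 7 tested, 1 fell in the first week and 2 fell after it, with list medians of -0.02 and -0.12. The called shares were 14.3% and 28.6%, against 10.1% and 35.9% of all genes. Slc7a5, part of an amino acid transporter that also carries thyroid hormone, was at 7.12, 7.23 and 7.39, then 6.37, 6.47 and 6.47, then 5.74, 6.00 and 5.79, and it fell in both intervals (-0.81 ± 0.09 and -0.59 ± 0.09). Slco1c1, a thyroxine transporter gene, was the other late fall (-0.18 ± 0.06, limma adjusted p = 0.0424). The late lower count was 1 without any single 24-hour array, 7-day replicate 1 or 2, or 10-week replicate 2 or 3, and also without 7-day replicates 2 and 3 together or under centring of arrays on their medians. Without 7-day replicate 3, 1 gene of this list was higher.

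Thyroid hormone target genes of heart, 15 tested, included 2 that rose and 2 that fell in the first week, and 8 that rose and 3 that fell after it. Myh7, the slow myosin heavy chain gene that thyroid hormone represses, was at 12.12, 12.42 and 12.23, then 9.45, 8.90 and 9.13, then 10.86, 11.11 and 11.07. It fell by 3.09 (SE 0.13, limma adjusted p = 2e-06) and then rose by 1.85 ± 0.13. Hcn2, a pacemaker channel gene, rose by 1.05 ± 0.15 and then 0.86 ± 0.15, and Kcnd2, a potassium channel gene, by 0.43 ± 0.11 and then 0.91 ± 0.11. The largest late differences were those of Kcne1, a potassium channel subunit gene (-4.38 ± 0.30), Myh7, and Thrsp, a lipogenic gene (1.64 ± 0.48). Thrsp was at 5.78, 8.39 and 6.75 on 7-day replicates 1 to 3, the order of Ucp1 on these arrays; the part of fat transcripts in that result was not tested. First-week rises numbered 1 without any single 24-hour array, 7-day replicate 2 or 3 or 10-week replicate 1, 4 without 10-week replicate 2, and 0 without 7-day replicates 2 and 3, which also left 1 first-week fall and 1 late fall. The list's median difference was 0.24 and then 0.26. Its called shares were 26.7% and 73.3%, against 10.1% and 35.9% of all genes.

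The peroxisome proliferator-activated receptors, fatty acid sensors, and the oestrogen-related receptors, orphan regulators of mitochondrial genes, make up 6 of the receptors. All 6 were higher at 10 weeks than at 24 hours, and 5 of 6 rose after 7 days. Among all genes these shares were 19.5% and 17.0%. Ppara was at 6.97, 7.25 and 7.06 at 24 hours, 7.39, 7.58 and 7.44 at 7 days, and 8.05, 8.04 and 7.96 at 10 weeks, with no overlap between ages. It rose by 0.38 ± 0.08 (limma adjusted p = 0.0141) and then by 0.55 ± 0.08 (adjusted p = 3.09e-04). Without 24-hour replicate 1 or 3 or 7-day replicate 2, the first rise was 0.32 to 0.36 and missed the threshold (adjusted p from 0.0512 to 0.0614). Ppard was flat over the first week, between 6.42 and 6.68, and reached 7.20, 7.13 and 6.95 at 10 weeks, a late rise of 0.45 ± 0.08 (adjusted p = 9.44e-04).

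Pparg, the master regulator of fat cell formation, was at 6.66, 6.77 and 6.63 at 24 hours, 6.79, 7.52 and 6.80 at 7 days, and 7.30, 7.44 and 7.28 at 10 weeks. The high 7-day array is replicate 2, the array with the highest Ucp1 and Adipoq signals. Mean signal of 8 white fat markers was 5.56, 7.38 and 6.13 on the 7-day arrays, 5.52 to 5.54 at 24 hours and 5.68 to 6.13 at 10 weeks. Pparg did not pass the test between 7 days and 10 weeks (0.30 ± 0.16, limma adjusted p = 0.183), but without 7-day replicate 2 the rise was 0.54 (adjusted p = 4.54e-04), and without 7-day replicates 2 and 3 it was 0.56 (adjusted p = 0.00682). Between 24 hours and 10 weeks, where no 7-day value enters the difference, it rose by 0.65 ± 0.16 (adjusted p = 0.00893). On the 10-week arrays Adipoq was at 4.57, 5.04 and 3.95 against 3.75 to 3.78 at 24 hours, and its part in that rise was not tested.

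Esrrg fell and rose again, the receptor with calls in opposite directions. Its signal was 7.46, 7.54 and 7.62 at 24 hours, 7.24, 6.97 and 6.97 at 7 days, and 7.76, 7.76 and 7.81 at 10 weeks, with no overlap between ages. The differences were -0.48 ± 0.08 (limma adjusted p = 0.00358) and 0.72 ± 0.08 (adjusted p = 4.47e-05). The 7-day arrays with fat transcripts are the lower ones, and with replicate 1 alone at 7 days the first difference was -0.30 (adjusted p = 0.137). The small net rise of 0.23 ± 0.08 from 24 hours to 10 weeks (adjusted p = 0.0365) lost its call without 24-hour replicate 1 or 2 or any single 10-week array.

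Esrrb kept to between 4.89 and 5.32 in the first week and reached 6.10, 6.24 and 6.19 at 10 weeks, a rise of 1.13 ± 0.11 after 7 days (limma adjusted p = 1.6e-05), or 2.19-fold. The 10-week arrays lay above all younger arrays. Esrra, a partner of the coactivator PGC-1 alpha, was at 7.21, 7.41 and 7.47, then 7.61, 7.46 and 7.31, then 8.02, 7.90 and 7.56, with overlap between the last 2 ages. Its late rise of 0.37 ± 0.12 (adjusted p = 0.0376) lost its call without 24-hour replicate 2, 7-day replicate 2 or 3, or 10-week replicate 1 or 2 (0.27 to 0.37, adjusted p up to 0.137). Its rise from 24 hours to 10 weeks was 0.46 ± 0.12 (adjusted p = 0.0117) and lost its call without 24-hour replicate 1 or 10-week replicate 1.

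**Figure D3:**
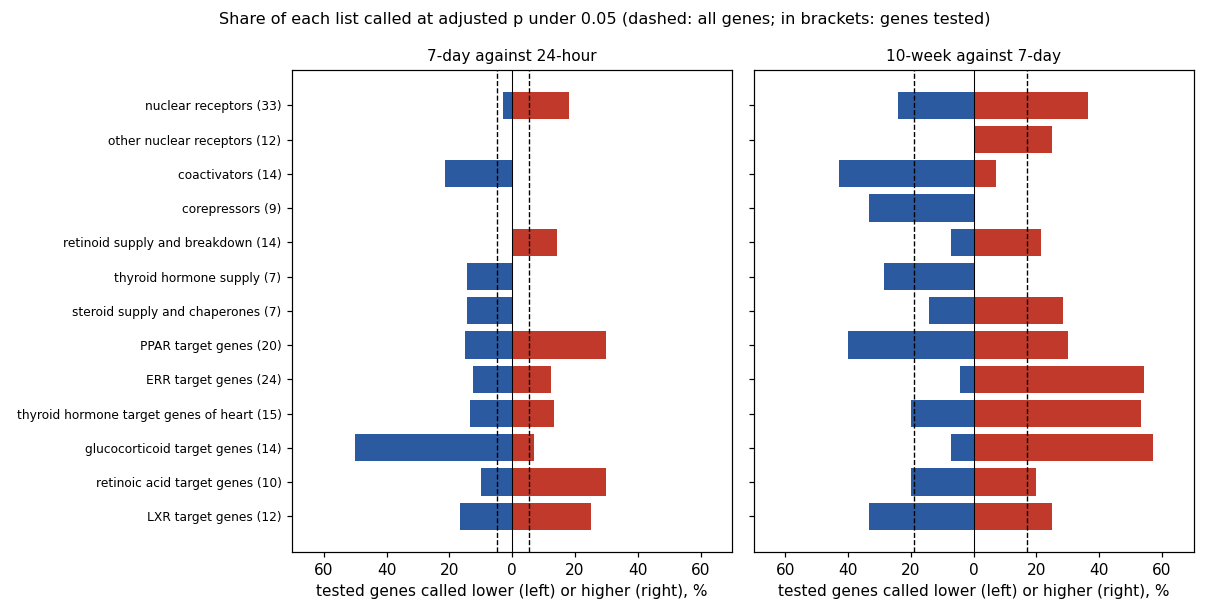
Share of each gene list (%) that was higher (right, red) or lower (left, blue) at adjusted p under 0.05 in the first week and from 7 days to 10 weeks, with dashed lines at the share over all 19938 genes and the number of genes tested in brackets. After 7 days the higher bar of the oestrogen-related receptor targets is 54.2% and their lower bar 4.2%, while 30.0% of the peroxisome proliferator-activated receptor targets were higher and 40.0% lower.

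Targets of the peroxisome proliferator-activated receptors, 20 tested, split by direction. In the first week 6 rose and 3 fell, and after 7 days 6 rose and 8 fell, with list medians of 0.03 and -0.06. The largest late falls were those of Angptl4, a lipoprotein lipase inhibitor gene (-2.67 ± 0.10, limma adjusted p = 4.79e-08), the acyl-CoA thioesterase gene Acot1 (-1.83 ± 0.10) and Cpt1a, the carnitine palmitoyltransferase form that predominates in the newborn heart and in liver (-1.02 ± 0.06). Angptl4 was between 8.32 and 8.67 on the younger arrays and at 5.77, 6.05 and 5.67 at 10 weeks. In the first week Acot1 (-0.82 ± 0.10) and Cpt1a (-0.63 ± 0.06) had already fallen, and the lipid droplet gene Plin5 rose by 0.60 ± 0.09. First-week rises numbered 2 when 24-hour replicate 1 was dropped and 3 when 24-hour replicate 2 or 7-day replicate 2 was dropped. With 7-day replicates 2 and 3 both dropped there were 0 rises and 1 fall.

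Targets of the oestrogen-related receptors, 24 tested and mostly genes of the citric acid cycle and respiratory chain, gave 3 rises and 3 falls in the first week and 13 rises and 1 fall after it. Ckmt2, the mitochondrial creatine kinase gene of muscle, was at 9.40, 9.56 and 9.60, then 10.48, 10.16 and 10.57, then 11.58, 11.83 and 11.50, and rose by 0.88 ± 0.11 and 1.24 ± 0.11. Cox8b, a cytochrome oxidase subunit gene, rose by 0.74 ± 0.09 in the first week. Got1, an aspartate aminotransferase gene, fell by 0.32 (SE 0.07, limma adjusted p = 0.0139) and then rose by 0.67 ± 0.07 (adjusted p = 2.34e-05). The single late fall was that of Pdk4, a kinase that restrains pyruvate oxidation (-0.98 ± 0.08). Pdk4 is also on the peroxisome proliferator-activated receptor and glucocorticoid target lists, and Acadm, which rose in both intervals, is on the former. The list's median difference was -0.05 and then 0.21, against 0.00 and 0.04 over all genes. First-week falls numbered 0 without 24-hour replicate 1 or 2 and 1 without 7-day replicate 1 or without 7-day replicates 2 and 3. Late falls numbered 2 without 7-day replicate 1 and under quantile normalization, and late rises 8 without 7-day replicates 2 and 3.

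Steroid receptors were represented by Nr3c1, Nr3c2 and Esr1. The glucocorticoid receptor gene Nr3c1 rose in the first week and then held, the mineralocorticoid receptor gene Nr3c2 rose later, and the oestrogen receptor gene Esr1 did not pass the test. Nr3c1 was at 8.05, 8.02 and 8.02 at 24 hours, 8.46, 8.45 and 8.45 at 7 days, and 8.31, 8.30 and 8.44 at 10 weeks. It rose by 0.42 ± 0.05 in the first week (limma adjusted p = 8.5e-04), with no overlap between those ages. The later difference was -0.10 ± 0.05 (adjusted p = 0.18) and became -0.15 (adjusted p = 0.032) without 10-week replicate 3.

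Nr3c2 was at 5.64, 5.21 and 5.56 at 24 hours, 5.67, 5.65 and 5.84 at 7 days, and 6.54, 6.21 and 6.46 at 10 weeks, and rose by 0.69 ± 0.12 after 7 days (limma adjusted p = 0.00116). Every 10-week array was above every younger array. Esr1 ranged from 3.95 to 4.53 over all arrays, with adjusted p between 0.111 and 0.685 for its 3 comparisons.

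Of 7 genes for steroid supply and receptor chaperones, 1 fell in the first week, and 2 rose and 1 fell after it. The called shares were 14.3% and 42.9%, against 10.1% and 35.9% of all genes. The list medians were -0.04 and 0.03. Hsd11b1, which regenerates active glucocorticoid inside cells, was at 3.70, 3.90 and 4.03, then 3.70, 3.91 and 3.60, then 6.44, 5.87 and 6.42. All 10-week arrays stood apart, and the rise was 2.51 ± 0.15 (limma adjusted p = 6.63e-07). Fkbp4, a chaperone that promotes receptor transport, rose by 0.58 ± 0.08 after 7 days, and the chaperone gene Hsp90aa1 fell by 0.25 (SE 0.04). Fkbp5, a glucocorticoid-induced inhibitor of the receptor, fell by 0.89 (SE 0.21, adjusted p = 0.0229) in the first week. That call was lost without 24-hour replicate 2 or any single 7-day array, and without 7-day replicates 2 and 3 together. Without 10-week replicate 2 or 3, 1 gene of this list was also higher in the first week.

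Glucocorticoid target genes, 14 tested, mostly fell where they changed in the first week, when Nr3c1 rose. In that week 1 rose and 7 fell, and after it 8 rose and 1 fell. The called shares were 57.1% and 64.3%, against 10.1% and 35.9% of all genes. The list medians were -0.32 and 0.42. Mt2, a metallothionein gene, was at 10.58, 11.01 and 10.58, then 9.15, 9.06 and 8.99, then 9.54, 10.10 and 10.01, and fell by 1.66 (SE 0.15, limma adjusted p = 1.02e-04) in the first week. The transcription factor gene Zbtb16 fell by 0.99 (SE 0.27) and the clock gene Per1 by 0.94 (SE 0.08) in the same week. After 7 days Ptgds, a prostaglandin D synthase gene, rose from between 8.22 and 8.57 to between 10.32 and 10.39 (limma adjusted p = 1.56e-07), while Zbtb16 rose by 1.80 ± 0.27 and Klf15, a metabolic transcription factor gene, by 1.49 ± 0.15. The first-week falls numbered 3 without 24-hour replicate 2, 7-day replicate 1 or 7-day replicate 2, 4 without 7-day replicate 3, and 2 without 7-day replicates 2 and 3, which also left 0 rises. The list shares Fkbp5 with the chaperones, Klf9 with the thyroid hormone targets and Dusp1 with the immediate early genes below.

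Among the sterol, bile acid and xenobiotic receptors, Nr1h3 alone rose. This gene encodes the alpha form of the liver X receptor, an oxysterol sensor that is prominent in macrophages and liver. It was at 5.18, 5.10 and 5.08 at 24 hours, 5.29, 5.41 and 5.34 at 7 days, and 6.43, 6.44 and 6.41 at 10 weeks, with no overlap between ages. The late rise was 1.08 ± 0.06 (limma adjusted p = 3.63e-07), or 2.11-fold. The first-week rise of 0.23 ± 0.06 (adjusted p = 0.0383) lost its call without any single 24-hour or 7-day array (0.20 to 0.26, adjusted p from 0.0529 to 0.129) and with arrays centred on their medians (adjusted p = 0.0608).

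Macrophage markers moved with it. Of 12 markers, 8 rose and 1 fell in the first week and 11 rose after it. The called shares were 75.0% and 91.7%, against 10.1% and 35.9% of all genes. Mean signal of the markers was 6.41 to 6.57 at 24 hours, 6.83 to 6.92 at 7 days and 7.65 to 7.83 at 10 weeks. The lowest signal among the 12 was 3.96, near the lower quartile of mean signal over all genes, 3.92. The part of the macrophage markers in the rise of Nr1h3 was not tested.

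**Figure D4:**
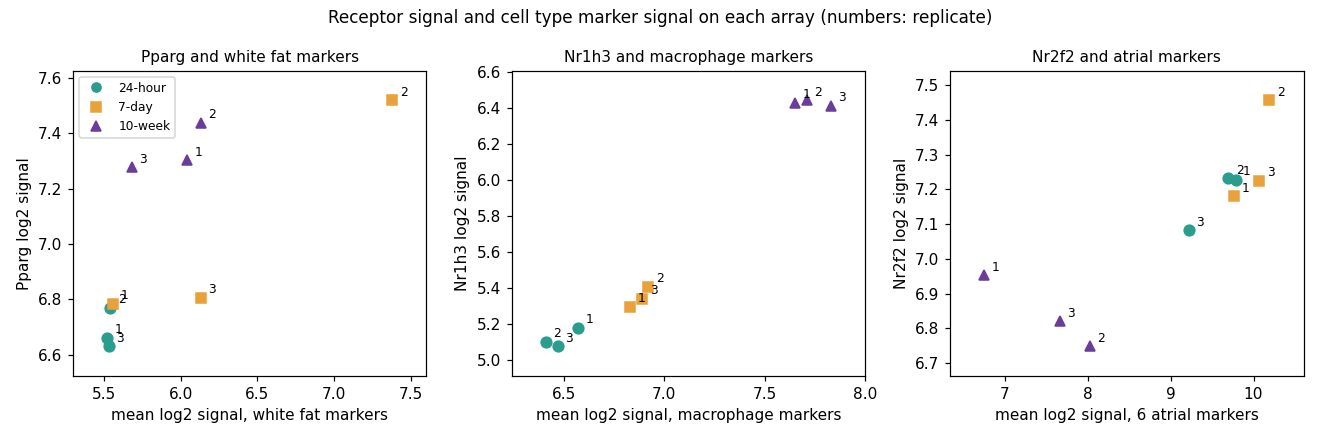
Log2 signal of a receptor (vertical axes) against the mean log2 signal of cell type markers (horizontal axes) on each of the 9 arrays, with replicate numbers beside the points: Pparg with 8 white fat markers, Nr1h3 with 12 macrophage markers and Nr2f2 with 6 atrial markers. Pparg is at 7.52 on 7-day replicate 2, where the fat markers average 7.38. The 10-week arrays stand apart in the Nr1h3 panel. The 10-week array with the lowest atrial markers (6.75) has the highest Nr2f2 of that age (6.95). Among the 7-day arrays, replicate 2 is highest for both the atrial markers (10.19) and Nr2f2 (7.46).

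Liver X receptor target genes, 12 tested, did not follow in a common direction. In the first week 3 rose and 2 fell, and after 7 days 3 rose and 4 fell, with list medians of -0.12 and -0.15. The called shares were 41.7% and 58.3%, against 10.1% and 35.9% of all genes. Pltp, a phospholipid transfer protein gene, rose by 1.15 ± 0.10 and then 0.99 ± 0.10. The desaturase gene Scd2 fell in both intervals and by 3.05 (SE 0.09) in all, and Lpcat3, a phospholipid remodelling enzyme gene, fell by 0.55 (SE 0.07) in the first week. Scd4, the desaturase form enriched in heart, was between 8.60 and 9.08 on the younger arrays and at 4.80, 5.12 and 5.53 at 10 weeks (-3.74 ± 0.16, limma adjusted p = 8.13e-08). First-week rises numbered 1 without any single 24-hour array or 7-day replicate 3, and late rises 5 without 7-day replicate 2. Without 7-day replicates 2 and 3 there were 1 first-week rise and 5 late rises.

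The bile acid receptor gene Nr1h4 was between 3.87 and 4.29 on all arrays. It was lower at 10 weeks than at 24 hours (-0.23 ± 0.07, limma adjusted p = 0.0287), a call lost without 24-hour replicate 1 or 2 or 10-week replicate 1 or 3 and with arrays centred on their medians (adjusted p = 0.051). The xenobiotic receptor gene Nr1i3 lay between 3.64 and 3.99, its mean below the lower quartile of all genes, and did not pass the test. Without 10-week replicate 3 it was higher at 10 weeks than at 7 days (0.22, adjusted p = 0.0324) and than at 24 hours (0.24, adjusted p = 0.0193).

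The retinoid-related orphan receptors drive circadian and metabolic genes through the sites that REV-ERB repressors also bind. Both ROR genes rose after 7 days, where 17.0% of all genes rose. Rora was at 6.77, 6.82 and 6.78 at 24 hours, 6.96, 6.97 and 6.97 at 7 days, and 7.40, 7.43 and 7.44 at 10 weeks. The 3 ages did not overlap, yet the first-week difference of 0.18 ± 0.05 missed the threshold (limma adjusted p = 0.0521) and passed it without 10-week replicate 3 (adjusted p = 0.0399). The late rise was 0.46 ± 0.05 (adjusted p = 4.4e-05). Rorb ranged from 4.36 to 4.83 and rose by 0.31 ± 0.08 after 7 days (adjusted p = 0.00871); with replicate 1 alone at 7 days the rise was 0.28 (adjusted p = 0.117).

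Nuclear receptors outside the 34 genes were read as a list of 12 tested, including the REV-ERB genes. In the first week limma called 0 of them, with 1 higher at unadjusted p under 0.05; without 24-hour replicate 3 it called 1 higher. After 7 days 3 rose and 0 fell, beside 17.0% of all genes that rose and 18.9% that fell. Nr1d1, the REV-ERB alpha gene, was between 7.77 and 7.98 on the younger arrays and at 9.82, 9.59 and 9.96 at 10 weeks, a rise of 1.93 ± 0.09 (limma adjusted p = 1.57e-07). Nr1d2, the REV-ERB beta gene, rose by 0.62 ± 0.07 and Nr0b2, an orphan corepressor gene, by 0.32 ± 0.11. The labels give no hour of collection. The list medians were 0.00 and 0.04.

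The NR2 orphan receptors comprise Nr2c1 and Nr2c2, which encode the testicular receptors TR2 and TR4, and the COUP transcription factor genes Nr2f1, Nr2f2 and Nr2f6. In this class 0 of 5 passed in the first week by limma (1 lower at unadjusted p under 0.05), and 2 fell after it. Among all genes 4.81% fell in the first week and 18.9% after it. Nr2c2 was at 7.75, 7.74 and 7.65, then 7.65, 7.83 and 7.63, then 7.18, 7.22 and 7.27, and fell by 0.48 (SE 0.07, adjusted p = 2.26e-04). Its younger ages overlapped and the 10-week arrays lay below both. Nr2c1 drifted down from between 6.75 and 6.86 at 24 hours to between 6.45 and 6.52 at 10 weeks (-0.33 ± 0.08, adjusted p = 0.00574), with neither interval past the threshold; without 7-day replicate 1 the late fall passed (-0.20, adjusted p = 0.0464).

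Nr2f2, which specifies atrial identity and is also expressed in veins, was at 7.23, 7.23 and 7.08 at 24 hours, 7.18, 7.46 and 7.22 at 7 days, and 6.95, 6.75 and 6.82 at 10 weeks. It fell by 0.45 (SE 0.09, limma adjusted p = 0.00215) after 7 days; with replicate 1 alone at 7 days the fall was -0.34 (adjusted p = 0.0656). The 6 atrial markers other than Nr2f1 and Nr2f2 averaged 9.76, 10.19 and 10.07 at 7 days and 6.75, 8.02 and 7.66 at 10 weeks. Of the 8 genes on the atrial list, these 2 receptors included, 7 fell after 7 days, where 18.9% of all genes fell. Within the 7-day group Nr2f2 and the atrial markers ranked the arrays in the same order. At 24 hours replicate 3 was lowest for both, with Nr2f2 at 7.08 and the atrial markers at 9.22. Within the 10-week group the order was the opposite, with Nr2f2 highest on replicate 1, where the atrial markers were lowest. The part of atrial tissue in the fall of Nr2f2 was not tested. Nr2f1 ranged from 4.54 to 4.88 and Nr2f6 from 5.64 to 6.06, and neither passed the test; without 7-day replicate 3 Nr2f6 was lower at 10 weeks than at 7 days (-0.25, adjusted p = 0.0378).

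The NR4A receptors are products of immediate early genes, induced within a short time by stress and growth signals without a ligand. In the first week limma called 0 of the 3 (1 higher at unadjusted p under 0.05), and 10.1% of all genes. Nr4a1 was at 6.74, 6.69 and 7.06 at 24 hours, 6.86, 7.16 and 7.33 at 7 days, and 6.92, 6.33 and 6.87 at 10 weeks, and the ages overlapped. Nr4a3 was at 3.94, 3.80 and 3.94, then 4.02, 4.20 and 4.51, then 3.83, 3.90 and 4.03. Its late fall of -0.32 ± 0.11 (adjusted p = 0.0462) lost its call without any single 24-hour array, 7-day replicate 2 or 3, or 10-week replicate 1 or 2 (-0.35 to -0.19), and under centring on array medians (adjusted p = 0.0767). Without 7-day replicate 1, the first-week rise of Nr4a3 (0.46, adjusted p = 0.0304) and the late falls of Nr4a1 (-0.54, adjusted p = 0.044) and Nr4a2 (-0.31, adjusted p = 0.0124) passed. Nr4a2 was between 5.47 and 5.87 on all arrays.

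Other immediate early genes, 16 tested, gave 5 rises and 0 falls in the first week, and 1 rise and 4 falls after it, with list medians of 0.18 and -0.05. In each interval 31.2% of the list was called, where 10.1% and then 35.9% of all genes were. The phosphatase gene Dusp1 rose by 0.91 ± 0.14 in the first week, the transcription factor gene Egr1 by 0.75 ± 0.13 and Jun by 0.51 ± 0.08. After 7 days Ier2 fell by 0.43 (SE 0.10), Egr1 by 0.42 (SE 0.13) and Jun by 0.32 (SE 0.08). Late falls numbered 2 without 7-day replicate 3 or 10-week replicate 1 and 0 without 7-day replicates 2 and 3, which also left 0 first-week and 0 late rises. Late rises numbered 2 without 24-hour replicate 1 or 10-week replicate 3 and 0 without 7-day replicate 1, 7-day replicate 3 or 10-week replicate 1. The processing moved these counts too. Late falls numbered 2 under quantile normalization. Late rises numbered 2 under quantile normalization, with arrays centred on their medians, without the dimmest genes and with eBayes without an intensity trend.

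Nr5a2, a regulator of bile acid and steroid synthesis outside the heart, ranged from 4.49 to 5.05. It fell by 0.31 (SE 0.08, limma adjusted p = 0.0122) after 7 days, and by 0.25 without 7-day replicate 2 (adjusted p = 0.0501). Nr6a1, the germ cell nuclear factor gene, ranged from 4.65 to 5.17 and did not pass the test, and 4 of its 9 values were identical. Among the deposited values, 10 of the 33 receptors and 51.5% of all genes had a value that occurred on at least 2 arrays.

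Coregulators, the proteins through which receptors act on chromatin, mostly fell where they changed. Of 14 coactivator genes, 3 fell in the first week and 0 rose, and 6 fell and 1 rose after it, with list medians of -0.05 and -0.12. The acetyltransferase gene Crebbp was at 9.43, 9.40 and 9.26, then 8.96, 9.18 and 9.04, then 8.61, 8.49 and 8.72, and fell by 0.30 (SE 0.08, limma adjusted p = 0.0347) and 0.46 (SE 0.08, adjusted p = 9.56e-04). Ncoa6, a bridging coactivator gene, fell by 0.30 (SE 0.06) and 0.46 (SE 0.06). Ppargc1a, the PGC-1 alpha gene, fell by 0.28 (SE 0.06) in the first week and fell again after it (-0.19 ± 0.06, limma adjusted p = 0.0246). Ppargc1b, the PGC-1 beta gene, fell by 0.58 (SE 0.09) after 7 days. First-week falls numbered 1 without 24-hour replicate 2, 0 without 7-day replicates 2 and 3, and 5 with arrays centred on their medians. Late rises numbered 2 without 10-week replicate 2 and 3 with centring, and late falls 2 without 7-day replicates 2 and 3.

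Of 9 corepressor genes, limma called 0 in the first week (1 higher at unadjusted p under 0.05), and 3 fell after it. These were Tbl1x (-0.54 ± 0.10, limma adjusted p = 0.00192) and Hdac3 (-0.29 ± 0.07, adjusted p = 0.00686), parts of the corepressor complex that unliganded receptors recruit, and the scaffold gene Sin3a (-0.47 ± 0.09, adjusted p = 0.00254). With replicate 1 alone at 7 days, 0 of them were called. The list medians were 0.02 and -0.15. From 7 days to 10 weeks 33.3% of the list was called, against 35.9% of all genes. Across all 18 alternatives, no receptor reversed the direction of a call, and 32 of the 47 calls made over the 3 comparisons held in every alternative.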

How the data were processed

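RNA from 9 heart samples was hybridised to Affymetrix arrays, and the deposited table holds 1 log2 value per feature and array. The submitters' processing notes name MAS5 version 5.0; probe summary, scaling, filters and the genome build were not given in the sources used here. That the deposited values are log2 was read from their range, 1.85 to 13.58; array medians lay within 0.0485 of each other. How MAS5 was applied to this array is not stated.

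Of 35556 features, 21789 carried 1 gene symbol in the platform annotation, 1621 several and 12146 none listed. Of the 21789, 21698 matched a RefSeq gene by Entrez identifier, which updated old symbols. Features with several symbols were left out. The highest-mean feature stood for a gene, giving 19938 genes, of which 999 had several features.

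All genes were fitted with limma 3.58.1 in R 4.3.3, with 1 mean per age over 9 arrays and eBayes with an intensity trend, and p-values were adjusted by Benjamini-Hochberg over all genes. Adjusted p under 0.05 counted as a call, and no intensity filter was used. The procedure was tested on simulated data. Alternatives covered scaling, dim genes, the variance prior, the arrays used and the replicate block. Titles share replicate numbers across ages; deviations of same-numbered arrays from their group means correlated between -0.174 and 0.133 over 9 pairs, so the numbers were not taken to pair samples. Tables were handled with Python 3.11.15.

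The receptors and gene lists were chosen with earlier results of these data known. Every receptor is accounted for; per-array values are given for receptors changed at least 2-fold, called in opposite directions or with replicates spread by 1 or more, and for others where a result turns on them. From each list up to 3 called genes with the largest differences per comparison were named, and the per-array values of such genes shown were picked after they were seen.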

Additional observations from a re-analysis of the deposited data

How the results depend on the processing

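No call of a receptor reversed direction in any of 18 alternatives. Of 99 receptor-by-comparison estimates, 47 passed the test, of which 15 lost the call in some alternative, and 13 others gained one. Leaving out each array in turn, first-week rises ranged from 2 to 7 and falls stayed at 1, rises after 7 days ranged from 11 to 13 and falls from 6 to 11, and from 24 hours to 10 weeks rises ranged from 11 to 13 and falls from 6 to 8. With 7-day replicates 2 and 3 left out together, 2 receptors rose and 0 fell in the first week, 10 rose and 4 fell after it, and 13 were higher and 6 lower between 24 hours and 10 weeks; the single 7-day array left is then assumed to vary like the other ages. Fewer arrays were fitted in all these cases. With the replicate number as a block, which the data did not bear out as a pairing, counts were 4 higher and 1 lower, 12 and 8, and 12 and 7; Thrb (adjusted p = 0.0767) and Nr1h3 (adjusted p = 0.0767) lost their first-week calls and Esrrg its call between 24 hours and 10 weeks (adjusted p = 0.0599). Centring arrays on their medians changed the split of all genes from 1050 higher and 959 lower to 888 and 1247 in the first week, and from 3388 and 3777 to 5247 and 3307 after it. The table holds no detection calls, and 11 of the 33 receptors had a mean signal below the median gene (5.57).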

Other observations

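The 14 glucocorticoid target genes were uneven between replicates of an age, a pattern picked out after its values were seen. Of the 14, 11 were highest of the 24-hour group on replicate 2, where 28.7% of all genes were highest, and 9 were highest of the 10-week group on replicate 2 (31.4% of all genes). The mean of the list was 8.08, 8.35 and 8.10 on the 24-hour arrays, 7.81, 7.75 and 7.84 at 7 days, and 8.32, 8.51 and 8.32 at 10 weeks. Fkbp5, induced by glucocorticoids, was at 6.66, 7.29 and 6.58 at 24 hours and at 6.00, 6.70 and 6.09 at 10 weeks. Zbtb16 was at 7.25, 8.04 and 6.67 at 24 hours. Nr3c1 was at 8.05, 8.02 and 8.02 at 24 hours and at 8.31, 8.30 and 8.44 at 10 weeks, and is not highest on replicate 2 in either group.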
